A study of Xenopus laevis with 2 samples.

Results

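The potassium channel genes of Xenopus laevis were examined for open DNA before zygotic genome activation (ZGA). Members were all protein-coding genes of the RefSeq table of assembly v10.1 whose symbol starts with kcn and ends in .L or .S, the suffixes for gene copies on the long and short homeologous chromosomes of this allotetraploid frog. The rule gave 120 of 34461 protein-coding genes on the 18 assembled chromosomes, with 63 on L and 57 on S chromosomes. The material was whole wild-type (WT) embryos that had received 2.3 ng of AID-Dam-only mRNA as zygotes and had reached 256 cells at 4.5 hpf. They formed 1 group of 2 replicates, each a pool of 500 embryos. Accessibility was read by CATaDa, in which a bacterial methylase that is not tethered to any protein marks adenine in GATC motifs of open DNA. Whole embryos pool all their cells. Non-injected controls were not analysed here.

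Potassium channels let potassium ions leave or enter the cell along their gradient and so set the resting potential and end the action potential. Pore subunits form the channel, and auxiliary subunits change its gating or its transport to the membrane. Voltage-gated members are best known from neurons, muscle and heart, where they shape firing, whereas inward rectifiers and leak channels hold the resting potential in many tissues. The frog oocyte is itself a classic system for recording these currents. The peak lists hold no expression, so the description of these genes as neural or late was not checked.

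The broad peaks numbered 325974 in replicate 1 and 277551 in replicate 2. The lists hold no read counts, so sequencing depth is unknown and no counting error was derived. Coverage below is the share of a gene window, the gene with 1 kb on each side, that lies in peaks. Fold enrichment is the authors' ratio of reads in a peak to the background of the peak caller. With a single group there is no contrast between conditions. The spread between the 2 replicates is the only error, genes are not replicates, and no test was made.

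Most potassium channel genes held a peak at this stage. At least 1 peak was present in 106 genes (88.3%) of replicate 1 and 100 genes (83.3%) of replicate 2, and in both replicates in 99 (82.5%). Over all protein-coding genes, 79.5% held a peak of each replicate, so the potassium channel genes lay near this background. In the same 99 genes (82.5% of the members) a peak of replicate 1 overlapped a peak of replicate 2 by at least 1 bp, against 77.1% of all protein-coding genes. Replicate 1 alone had a peak in 7 genes and replicate 2 alone in 1 gene, kcne4.S, an auxiliary subunit. The windows, 7.36 Mb in sum, were covered to 4.73% in replicate 1 and 4.44% in replicate 2, or 4.59% ± 0.205 on average (SD, n = 2). Other protein-coding genes were covered to 4.98% and 4.66%, or 4.82% ± 0.226 on average (SD, n = 2). In each replicate the potassium channel genes were thus the lower set in summed coverage, by less than the replicates differed.

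Taken gene by gene, the order of the sets turned. The median coverage of potassium channel genes was 5.28% in replicate 1 and 4.55% in replicate 2, against 4.90% and 4.48% for other protein-coding genes. These gaps were again smaller than the difference between replicates, and in replicate 2 the medians were nearly equal. The members are long, with a median length of 34224 bp against 17160 bp, and long genes carry most of the summed sequence. Whether length accounts for the change of order was not tested. Coverage was higher in replicate 1 for 62 genes, higher in replicate 2 for 45 and 0 in both for 13. Spearman's rho of coverage between replicates was 0.689 across the 120 genes, which share their libraries and overlap in a few windows, and is given as a description.

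**Figure D1:**
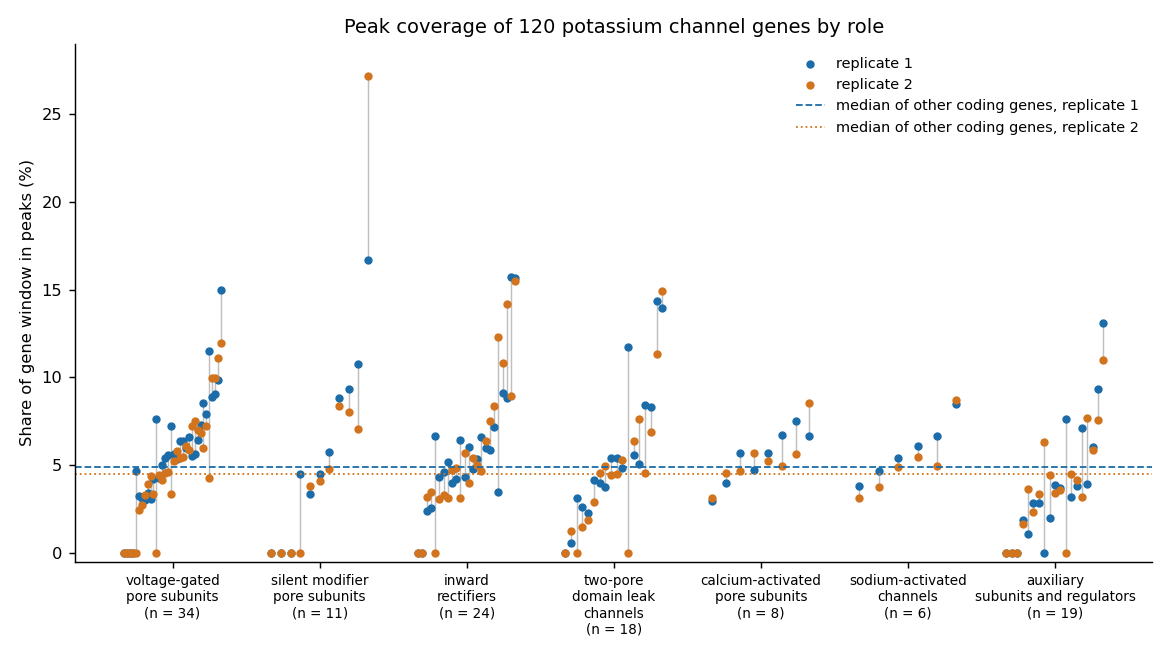
Coverage of the gene window in peaks (percent, y axis) for each of 120 kcn genes, grouped by role and ordered by mean within each role. Blue and orange points are replicates 1 and 2 of the same gene, joined by a grey line, and broken lines mark the medians of other protein-coding genes (4.90% and 4.48%). No calcium-activated or sodium-activated channel is at 0% in either replicate, whereas each other role includes genes at 0%. The shortest calcium-activated and sodium-activated genes are 41163 bp and 59882 bp, and all members at 0% in both replicates are under 20 kb.

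The voltage-gated pore subunits were the most numerous role, with 34 genes. Their median coverage was 5.59% in replicate 1 and 4.58% in replicate 2, and 28 of them held peaks of both replicates. kcnc1.S, a channel of fast-firing neurons (gene ID 373613; 7S, 97547785 to 97618677), had 12 and 11 peaks and a coverage of 6.41% and 6.97%. kcnd3.L, which carries the transient A-type current (gene ID 378574; 2L, 78646500 to 78888971), had 20 and 22 peaks over a much longer window and a coverage of 3.08% and 4.35%. The ether-a-go-go type gene kcnh5.L had 3.13% and 2.71%, both low for its length, at the percentiles 13.9 and 11.4 of other protein-coding genes within 10% of that length.

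kcnq1, which forms the slow delayed rectifier of the heart together with kcne1, was covered in both copies. kcnq1.L (gene ID 373746; 4L, 18337248 to 18420505) had 6.39% and 5.43%, and kcnq1.S (gene ID 108715189; 4S, 5750927 to 5803582) had 7.23% and 3.36%. The copies overlapped in their replicate values, so no order between them was seen.

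The Shaker-type genes kcna1 to kcna10 include 4 of the 13 members with no peak in either replicate. These 4 were also the only such genes among the 34 voltage-gated pore subunits (11.8%), against 11.2% of all protein-coding genes. They are short, from 2493 bp in kcna1.S to 9066 bp in kcna2.S. kcna2, an axonal delayed rectifier, had no peak in either replicate at kcna2.L (gene ID 373840; 2L, 54183035 to 54189347) or at kcna2.S (gene ID 108709388; 2S, 44155643 to 44164708). Around kcna2.L the nearest peaks lay 1.06 kb and 1.02 kb from the gene, just outside the window, with a fold enrichment of 7.07 and 7.27. Around kcna2.S they lay 11.8 kb and 29.4 kb away. Of other protein-coding genes as long as kcna2.L, 22.1% had no peak in either replicate, and for kcna2.S this share was 14.6%. For kcna1.S and kcna6.S, the other 2 of the 4, it was 36.7% and 24.7%. An empty window was therefore not rare at these lengths.

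kcna2 lies between kcna3 and kcna10 on 2L and on 2S, and the stretch across all 3 genes was not empty. On 2L this stretch of 208 kb held 27 and 22 peaks and was covered to 4.72% and 4.46%. On 2S a stretch of 192 kb held 25 and 16 peaks and was covered to 5.77% and 3.78%. kcna10, annotated over 1500 bp in each copy, had 1 peak per replicate in both copies, with a coverage from 8.86% to 9.97%. kcna3 had 6.61% and 5.86% in kcna3.L, annotated over 26101 bp, and 14.95% and 11.9% in kcna3.S, annotated over 1458 bp, where 1 peak made up all of the covered sequence in each replicate.

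The second group of Shaker-type genes, kcna6, kcna1 and kcna5, spans 238 kb of 3L and had 34 and 25 peaks. kcna1.L (gene ID 108710773; 3L, 24434558 to 24440730) had 2 peaks and 1 peak and a coverage of 11.5% and 4.27%. On 3S, kcna1.S and kcna6.S had no peak in either replicate, although 13 and 9 peaks lay in the 88.0 kb that hold both. At kcna1.S the nearest peak was 2.11 kb away in each replicate.

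**Figure D2:**
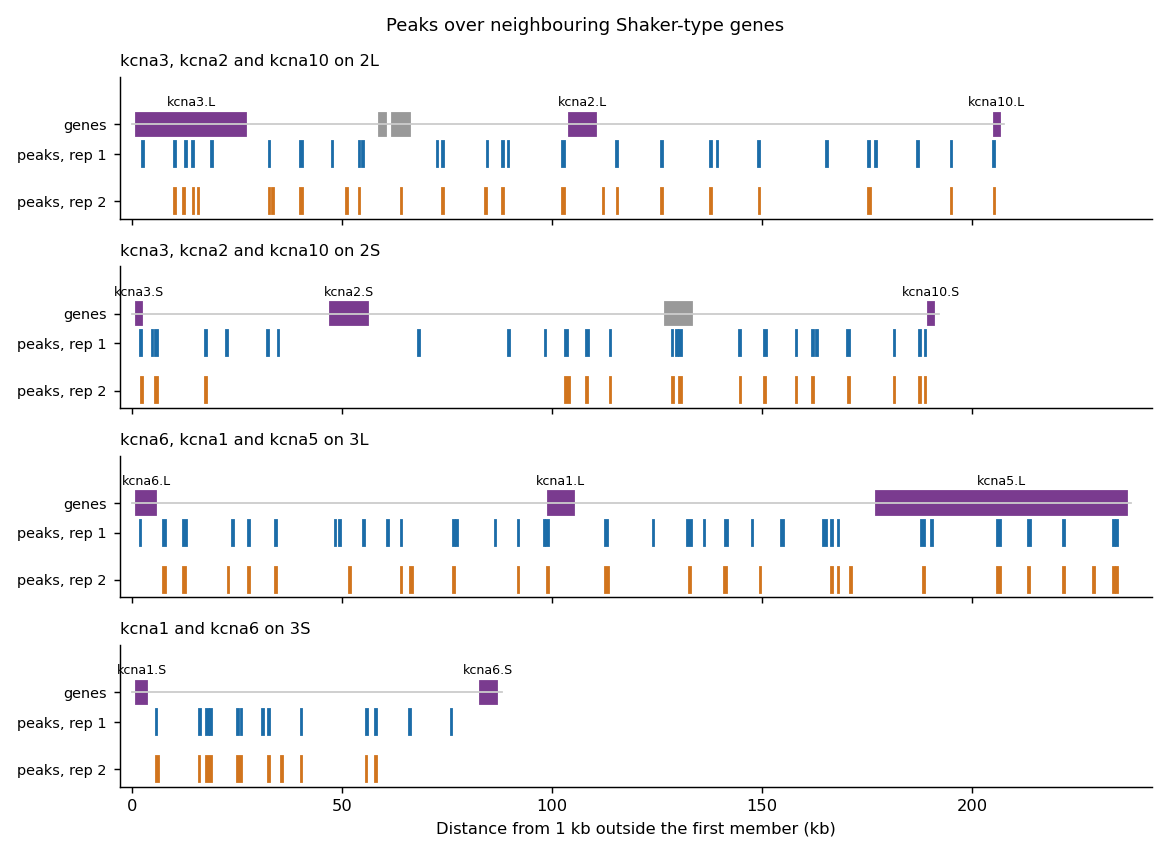
Peaks over neighbouring Shaker-type genes on 2L, 2S, 3L and 3S, against distance in kb from 1 kb outside the first member (x axis). Purple boxes are kcn genes, grey boxes other protein-coding genes, blue bars peaks of replicate 1 and orange bars peaks of replicate 2, all drawn to scale with a minimum width. kcna2.L, kcna2.S, kcna1.S and kcna6.S hold no peak, and the peaks nearest to kcna2.S lie 11.8 kb and 29.4 kb away.

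The silent modifier subunits, which form no channel of their own and alter voltage-gated partners, were short, with a median length of 7032 bp. They ranged from 0% to 16.7% in replicate 1 and from 0% to 27.2% in replicate 2, and 7 of 11 (63.6%) held peaks of both replicates. Of other protein-coding genes, 44.2% of those under 5 kb and 63.7% of those of 5 to 10 kb did so. kcns3.S (gene ID 108717604; 5S, 129551958 to 129553961) had the highest coverage of all members, 16.7% and 27.2%. A single peak across one end of the gene gave this value, from 129551467 to 129552134 in replicate 1 and from 129551452 to 129552540 in replicate 2. Its fold enrichment was moderate, 6.01 and 3.85. kcnv2.S had 3 peaks in each replicate and a coverage of 10.8% and 7.08%, whereas kcnv2.L had none, with the nearest peak 1.09 kb away in each.

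Among 24 inward rectifiers, which pass potassium inward more readily than outward, the median coverage was 5.28% and 4.79%, and 21 held peaks of both replicates. kcnj8.S, a pore subunit of ATP-sensitive channels (gene ID 100526745; 3S, 584023 to 587965), had 2 peaks in each replicate and a coverage of 15.7% and 15.5%. kcnj13.L had 15.7% and 8.92%, and kcnj14.S had 8.83% and 14.2%. kcnj2.S, a strong rectifier of heart and muscle (gene ID 108702689; 9_10S, 18706818 to 18727203), had 5.19% and 3.12%. Its recurring peak lay outside the gene, less than 1 kb beyond its upper end.

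kcnj1 and kcnj5 adjoin each other. On 7L the annotation places kcnj1.L inside kcnj5.L, so peaks near kcnj1.L count for both. The peak just outside the lower end of kcnj1.L, from 74989787 to 74990204 in replicate 1, had a fold enrichment of 18.7 and 13.8. kcnj5.S is annotated over 788 bp and had no peak, and 57.7% of the 97 genes of similar length had none either.

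Two-pore domain leak channels set the background conductance of many cells. Of 18 such genes, 15 held peaks of both replicates, and their median coverage was 4.92% and 4.52%. kcnk1.L had 13.9% and 14.9%, and kcnk18.L had 14.4% and 11.3%. kcnk2, a channel that responds to membrane stretch, had 5.57% and 6.38% in kcnk2.L and 4.80% and 5.31% in kcnk2.S. kcnk10, its close relative, was low in both copies. kcnk10.L (gene ID 446288; 8L, 76894442 to 76949481) had 1 peak and 2 peaks in 55040 bp, a coverage of 0.543% and 1.22%, and stood at the percentiles 0.206 and 2.34 for its length. kcnk10.S had 2.27% and 1.90%, at the percentiles 6.70 and 6.84. kcnk4.L had no peak over 16735 bp, which was seen in 4.58% of the genes of similar length.

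The calcium-activated pore subunits held peaks of both replicates in 8 of 8 genes, with a coverage between 2.95% and 7.49% in replicate 1 and between 3.11% and 8.51% in replicate 2. These genes are long, the shortest of them 41163 bp, and 95.5% of other protein-coding genes of 20 to 50 kb and 99.7% of those of 50 to 100 kb also held peaks of both replicates. kcnma1.L, the large-conductance channel that opens with calcium and voltage (gene ID 373712; 7L, 55924227 to 56597476), is the longest member with 673250 bp. It had 89 peaks and 78 peaks, the most of any member, and a coverage of 5.69% and 5.26%. kcnn2, a small-conductance channel behind the afterhyperpolarisation, had 3.98% and 4.53% in kcnn2.L and 2.95% and 3.11% in kcnn2.S. The 6 sodium-activated channels, kcnt1, kcnt2 and kcnt2l in both copies, also held peaks of both replicates and had a median coverage of 5.76% and 4.90%. The shortest of them is 59882 bp, and 99.9% of other protein-coding genes of 100 to 200 kb also held peaks of both replicates.

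Auxiliary subunits and regulators had the lowest median of the 7 roles in each replicate, 3.18% and 3.59%. Their 19 windows were covered to 3.59% ± 0.0608 (SD, n = 2) in sum. kcnip1.L, whose product binds calcium and alters A-type channels (gene ID 444582; 3L, 38634306 to 38817867), had 10 and 8 peaks in 183562 bp and a coverage of 1.87% and 1.65%. These were the percentiles 0.257 and 1.54 for its length. The annotation places kcnmb1.L inside kcnip1.L, so this stretch counts for both genes in the summed windows. kcnmb2.S, a subunit of the large-conductance channel, had 2.86% and 2.31%, at the percentiles 7.48 and 6.23. kcnmb3.S had no peak over 17806 bp, seen in 3.87% of the genes of similar length. kcnab3, a cytoplasmic beta subunit, went the other way. kcnab3.S (gene ID 108703529; 3S, 128043111 to 128070171) had 13.1% and 10.99%, at the percentiles 99.3 and 98.2, and kcnab3.L had 9.33% and 7.54%, at the percentiles 96.2 and 86.4. Of the small kcne subunits, kcne1.L had 2.84% and 3.33%, and kcne3.S had 3.90% and 7.67% from a single peak per list, of 11.3 and 7.22 in fold enrichment.

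Since longer windows collect more peaks, each member was set beside all other protein-coding genes within 10% of its length. In both replicates, 48 members (40%) lay above the median of these genes, against 38.8% of all protein-coding genes, and 42 (35%) lay below it, against 37.1%. Both shares were near their background. Members exceeded the similar-length median by a mean of 0.692 percentage points in replicate 1 and 0.671 points in replicate 2. Other protein-coding genes also exceeded it, by 0.626 and 0.815 points, so the excess was not particular to the members. By role, the counts above and below were 17 and 11 for voltage-gated pore subunits, 5 and 6 for silent modifiers, 9 and 5 for inward rectifiers and 5 and 7 for leak channels. They were 5 and 1 for calcium-activated subunits, 4 and 1 for sodium-activated channels and 3 and 11 for auxiliary subunits and regulators. Those 11 include both kcnip1.L and kcnmb1.L, which share sequence.

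The difference from other genes varied in sign with the length of the members. Under 5 kb, 21 members had a summed coverage of 5.48% and 5.39%, against 6.18% and 5.76% for other protein-coding genes of that class. From 5 to 10 kb the replicates disagreed in sign, and from 10 to 20 kb the 11 members were lower in both, 4.87% and 4.18% against 5.34% and 4.99%. In 26 genes of 20 to 50 kb, summed coverage was 5.60% and 5.33%, against 5.19% and 4.87% for other protein-coding genes of that class. In 24 genes of 50 to 100 kb it was 5.40% and 5.19%, against 5.004% and 4.70%. In 16 genes of 100 to 200 kb it was lower, 4.23% and 4.10%, against 4.77% and 4.46%. In the 7 genes of 200 kb or more it was 4.21% and 3.82%, against 4.58% and 4.27%, although kcnma1.L, the longest of them, was above its class. In each of the classes from 20 kb upwards the direction was the same in both replicates. Short genes scattered widely. The 36 members under 10 kb ranged from 0% to 21.9% in the mean of both replicates, whereas the 47 members of at least 50 kb ranged from 0.884% to 8.59%. The median difference between replicates was 1.47 points in the former and 0.692 points in the latter.

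**Figure D3:**
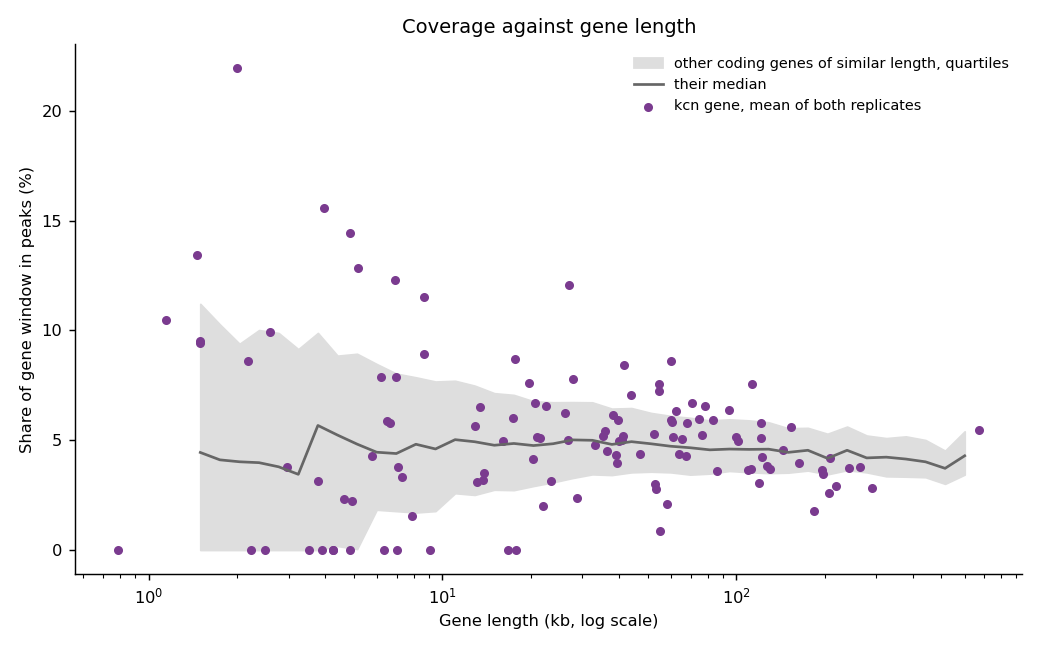
Coverage of the gene window in peaks (percent, mean of both replicates, y axis) against gene length (kb, log x axis) for 120 kcn genes (purple). The grey line and band give the median and quartiles of other protein-coding genes within 10% of each length. Points scatter from 0% to 21.9% among short genes and from 0.884% to 8.59% at 50 kb or more.

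In all, 13 members had no peak in either replicate (10.8%), against 11.2% of all protein-coding genes. They were kcna1.S, kcna2.L, kcna2.S, kcna6.S, kcne2.L, kcnf1.S, kcnj5.S, kcnj8.L, kcnk4.L, kcnmb3.S, kcnrg.L, kcns1.L and kcnv2.L. All are under 20 kb, and 11 of them are under 10 kb. The nearest peak lay between 1.06 kb and 11.8 kb away in replicate 1 and between 1.02 kb and 29.4 kb away in replicate 2. With an unknown depth, the lack of a peak does not show that the DNA was closed.

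Long members also held long stretches without any peak of either list. Among 73 members of at least 20 kb, the longest such stretch within the window had a median of 16.2 kb. It reached 60.2 kb in kcnmb2.S, 58999 bp in kcnip4.L and 44.3 kb in kcnip1.L, in genes of 206929 bp, 196709 bp and 183562 bp. Such stretches were not measured in other protein-coding genes, so whether they are long for the length of the gene is not known. In kcnj9.L, a subunit of channels opened by G proteins, a stretch of 37.7 kb made up 68.0% of the window.

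The ends of genes were examined next. The table gives no strand, so the start of transcription was not separated from the opposite end. A peak lay within 1 kb of 77 of 240 ends (32.1%) in replicate 1 and 71 (29.6%) in replicate 2, against 28.4% and 24.6% for other protein-coding genes. Peaks of both replicates were found at 58 ends (24.2%), against 19.8% of the ends of all protein-coding genes. The members thus exceeded other genes by 3.69 (replicate 1) and 4.95 (replicate 2) percentage points. The gap in replicate 1 was no larger than the difference between replicates in other genes, whereas that in replicate 2 was larger. Gene ends were not matched for gene length, and the members are longer than other genes. Peaks of both replicates lay at both ends of 6 genes, among them kcna7.L, kcnj14.L, kcnk1.L, kcnk5.S and kcnn1.L, whereas 46 genes had them at 1 end and 68 at none. Voltage-gated pore subunits had a peak at 41.2% and 32.4% of their ends, and auxiliary subunits and regulators at 23.7% in each replicate.

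Coverage by distance was also higher for the members at both sides of the end, most clearly outside the genes. In the 1 kb outside the genes, 6.01% and 5.46% of the sequence was in peaks, against 4.89% and 4.62% for other protein-coding genes. In the 1 kb inside, the values were 5.74% and 6.24%, against 5.53% and 5.01%. Here the gap in replicate 1 was smaller than the difference between replicates in either set. Zones were not matched for gene length. Between 1 and 5 kb inside, the members were lower, 4.58% and 4.47% against 5.29% and 4.98%. More than 20 kb from either end they were again lower, 4.34% and 4.14% against 4.70% and 4.39%. Between 5 and 20 kb the replicates disagreed in sign, with 5.30% and 4.70% against 5.13% and 4.80%.

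**Figure D4:**
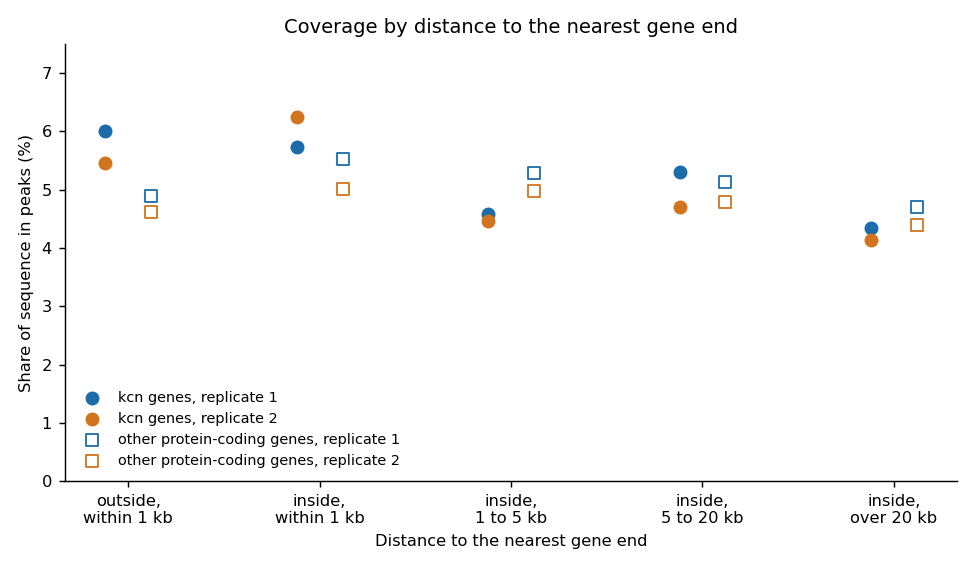
Share of sequence in peaks (percent, y axis) by distance to the nearest gene end (x axis), for kcn genes (filled circles) and other protein-coding genes (open squares), in replicate 1 (blue) and replicate 2 (orange). Within 1 kb of an end on either side, both circles lie above the squares of the same colour, and from 1 to 5 kb inside they lie below.

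The peaks themselves were like peaks elsewhere. Windows of potassium channel genes held 856 peaks in replicate 1 and 733 in replicate 2. Of these, 569 (66.5%) and 571 (77.9%) overlapped a peak of the other replicate, against 66.3% and 77.6% for peaks in windows of other protein-coding genes. The median fold enrichment was 4.38 and 4.51, against 4.35 and 4.50. The median width was 335 bp and 364 bp, against 336 bp and 374 bp. Overlapping peaks had a higher fold enrichment than the others, 4.87 against 3.74 in each replicate. In windows of other protein-coding genes it was 4.93 against 3.65 in replicate 1 and 4.88 against 3.73 in replicate 2. Of 575 overlapping pairs of peaks in windows of potassium channel genes, 66 (11.5%) had the same start and end in both lists. This share was not computed for peaks elsewhere.

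Recurring peaks were ranked by the geometric mean of their fold enrichment in both replicates. The strongest of the family by this measure lay in kcna7.L, 14.5 kb from its lower end, at 7L, 119545809 to 119546188. It had the same coordinates in both lists and a fold enrichment of 15.7 and 17.999. The next lay in kcnab2.L, at 7L, 102892250 to 102892593 in replicate 1, with a fold enrichment of 18.5 and 14.6, followed by the peak beside kcnj1.L given above. A peak in kcnk13.S, at 8S, 21659400 to 21659779, was 380 bp wide in both lists, the same width as the peak in kcna7.L, and had 14.4 and 17.7. The last of the 5 lay in kcnj12.S, with 17.5 and 12.3. All 5 were under 500 bp wide in both lists. Among the widest overlaps were those in kcnk9.L, kcnj16.L, kcnt2.L and kcnma1.L, from 1076 bp to 1041 bp. Their fold enrichment was lower, between 4.37 and 7.07. Whether these peaks lie in exons, introns or untranslated regions was not determined.

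The L and S copies were compared because both descend from 1 gene in the common ancestor of the parent species. Of 77 gene names, 43 occurred as an L and S pair, and the other 34 occurred once under that name. Coverage was higher on the S copy in both replicates in 16 pairs (37.2%), against 39.3% of all homeolog pairs, and higher on the L copy in 14 pairs (32.6%), against 31.0%. In the remaining 13 pairs the replicates disagreed or a difference was 0. The mean difference, L minus S, came to -0.261 (replicate 1) and -0.514 (replicate 2) percentage points, on average -0.388 ± 0.179 (SD, n = 2). For other protein-coding pairs it was -0.316 and -0.425 points. The mean depended on single pairs, as values chosen after seeing the data showed. Leaving out kcns3 gave -0.00617 (replicate 1) and 0.00753 (replicate 2), and leaving out kcnj8 gave 0.106 and -0.159. Without kcnf1, the largest difference towards L, it was -0.477 and -0.726. Over the 31 pairs whose lengths differed by less than 1.5 times the replicates disagreed in sign, with 0.417 and -0.107 points.

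Single pairs differed far more than this mean, and the largest differences had a short copy. kcnj8 had no peak on L and 15.7% and 15.5% on S, over genes of 4243 bp and 3943 bp. kcnf1 had 8.84% and 8.37% on L and no peak on S, over 2172 bp and 2232 bp. The 1 peak per replicate of kcnf1.L lay outside the gene, within its flank, with a fold enrichment of 6.72 and 3.93. Near kcnf1.S the closest peaks lay 1.68 kb and 1.64 kb away, beyond the window, with a fold enrichment of 16.9 and 8.68. This difference thus depends on the width of the flank. kcnk1 had 13.9% and 14.9% on L and 11.7% and 0% on S, and kcnj1 had 9.10% and 10.8% on L and 6.68% and 0% on S. In both of these pairs the S copy had peaks in replicate 1 only. The values of kcnj1.L came from the peak given above, which lies outside kcnj1.L and inside kcnj5.L. kcns3 had 5.73% and 4.76% on L against the 16.7% and 27.2% on S given above, over 76684 bp and 2004 bp. kcnj14 had 7.16% and 8.38% on L and the higher values given above on S, over 27767 bp and 8668 bp. In both, as in kcna3, the higher S copy was annotated as the shorter one, whereas in kcnv2 the higher S copy (8674 bp against 4858 bp) and in kcna1 the higher L copy (6173 bp against 2493 bp) was the longer one.

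Long pairs differed less. Over the 24 pairs with both copies of at least 20 kb, S was higher in both replicates in 11 (45.8%) and L in 7 (29.2%). For other protein-coding pairs with both copies of that length the shares were 42.3% and 31.3%, so both counts were near their background. Among the 24 pairs, differences in the mean of replicates ran from -3.62 to 3.58 points. kcnmb4, a subunit of the large-conductance channel, had 6.03% and 5.85% on L against 1.10% and 3.63% on S. kcnh5 had 3.13% and 2.71% on L against 5.37% and 5.82% on S. In both pairs the values of the copies did not overlap. Coverage of the copies was weakly related across the 43 pairs, with a Spearman's rho of 0.265, against 0.205 across other protein-coding pairs. These are correlations across genes of the same libraries.

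**Figure D5:**
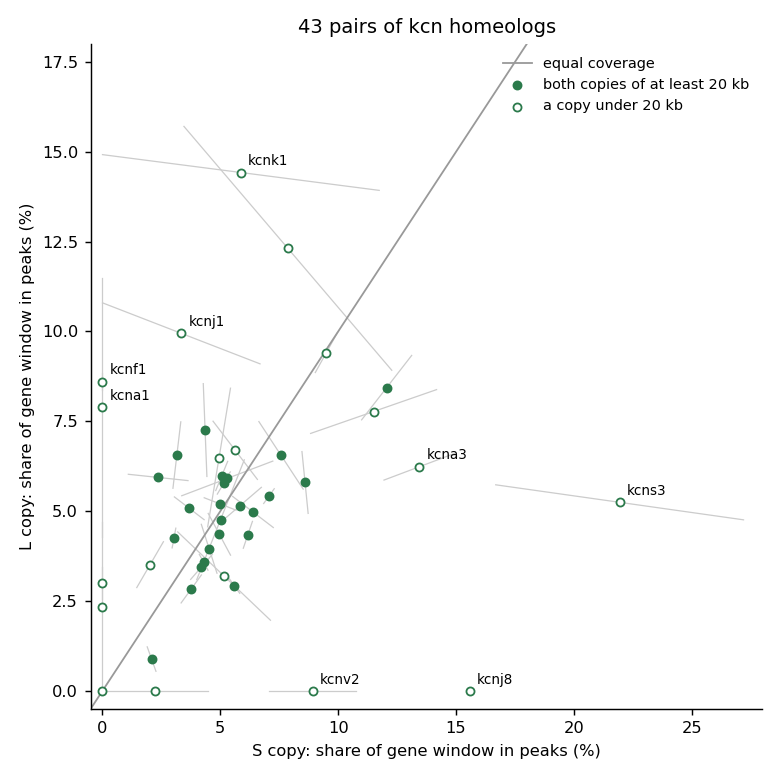
Coverage of the L copy (percent, y axis) against the S copy (percent, x axis) for 43 kcn pairs, as the mean of both replicates, with a grey line from replicate 1 to replicate 2. Filled points are pairs with both copies of at least 20 kb and the diagonal marks equal coverage. The pairs far from the diagonal, among them kcns3, kcnj8, kcnk1 and kcnf1, have a short copy.

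Other ion channels of excitable cells were described in the same way. The 35 voltage-gated calcium channel genes were covered to 5.44% and 5.22%, and 23 of them (65.7%) lay above the similar-length median in both replicates, against 38.8% of all protein-coding genes. The 8 voltage-gated sodium channel genes were covered to 5.45% and 4.63%, with 4 (50%) above. The 2 HCN pacemaker channel genes were covered to 5.46% and 5.20%, with 1 (50%) above. In each replicate the summed coverage of all 3 families was above that of the potassium channel genes (4.73% and 4.44%), with the smallest distance for sodium channels in replicate 2.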

How the data were processed

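CATaDa libraries of 2 replicates were used. The authors placed paired-end reads on assembly v10.1 with bowtie2 in the damidseq pipeline and called broad peaks with MACS 3.0.1 on each replicate. A control and a cutoff were not given in the sources used here. The deposited score, the authors' -log10 p and the deposited -log10 q per peak were not used, apart from -log10 q as a filter. The authors' fold enrichment, a ratio averaged over the region, described peaks. Positions count from 1.

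Genes came from RefSeq without strand, exons or sequence. Peak number and covered bases were computed per gene window and for all protein-coding genes with Python 3.11.15, pandas 2.3.3 and numpy 2.4.6. Planted coverage was recovered on simulated data against the mean of similar-length genes. The median, used for the reported differences, was not simulated. Coding genes within 10% of the length served as comparison. The 120 members, their roles and the lists were chosen with earlier results of these data known. Roles followed the symbol.

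Genes were named by textbook role, by the 5 highest and 5 lowest coverages at 5 kb or more, by the 5 largest L and S differences each way and by the 5 strongest and 5 widest recurring peaks. Copies of the preset genes not in the gene table under that symbol were not analysed here. A few more (kcnk10, kcnh5, kcnip4.L, kcnmb2.S, kcnj9.L, kcnab3.L, kcnj5.S, kcne4.S, other kcna genes, genes without a peak or with peaks at both ends) were added after their values were seen. Alternatives were other peak thresholds, flanks, comparison genes, pairs and single replicates. Values of a few named genes are not reported here.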

Additional observations from a re-analysis of the deposited data

How the results depend on the processing

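Depth is unknown, 2 replicates limit precision, and GATC density was not corrected for. No paired analysis was possible because the series holds a single group. Leaving out each replicate gave a coverage of 4.44% to 4.73%, a difference from similar-length genes of 0.671 to 0.692 points, an L minus S difference of -0.514 to -0.261 points and peaks at 29.6% to 32.1% of gene ends. With both replicates, main values were compared with the SD over replicates. A -log10 q of at least 2 moved coverage to 4.32% and the similar-length difference to 0.775 points (other protein-coding genes 4.51% and 0.775). A fold enrichment of at least 3 gave 4.23%, 0.748 points (others 4.396% and 0.754), -0.0810 points for L minus S and 28.8% of gene ends. The upper 50% of peaks gave 2.39%, 0.974 points (others 2.44% and 0.959), -0.104 points, 15.6% of ends and 71.7% of genes with peaks of both replicates. These 3 settings remove peaks by construction. Genes without flanks gave a similar-length difference of 1.20 points and -1.04 points for L minus S, and flanks of 5 kb gave 0.0759 points, -0.0360 points and 95.8% of genes with peaks of both. Comparison genes within 25% gave 0.718 points, those with an .L or .S symbol 0.842 points, and their mean in place of the median, chosen after seeing the data, 0.0452 points. For these flanks and comparison genes, values are given for members only. How they stand beside other protein-coding genes is thus not known. The mean L minus S changed sign with pairs of like length (0.155 points; 0.417 and -0.107 per replicate) and without kcns3 (0.000679 points). It was -0.0260 without kcnj8, -0.602 without kcnf1 and -0.0951 points with copies of at least 5 kb, and all but the first were chosen after seeing the data. Ends with a peak within 500 bp were 20.8%. Shares of gene ends are given here for members only, so their excess under the peak thresholds and at 500 bp is not known. The cause of the shifts in this paragraph was not tested, other than by construction. Leaving aside 9 named genes at 0, 79 coverages of named genes under the 3 peak thresholds stayed within the SD over replicates and 47 moved. The share of recurring peaks, 72.2%, stayed within its SD of 8.08 points under every threshold and the stricter overlap. That SD is taken between 66.5% and 77.9%, which are nearly the same overlaps divided by lists of 856 and 733 peaks. It thus reflects the unlike number of peaks, and staying within it says little about stability.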
